A study of Mus musculus with 10 samples.

Results

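The cytosolic and mitochondrial heat shock chaperones examined here were 10 genes: Hspa1a, Hspa1b, Hspb1, Hspb8, Hspa8, Hsph1, Dnajb1, Hsp90aa1, Hspd1 and Hspe1. Their members were all probe sets that the platform annotation maps to 1 of these symbols, which gave 23 of the 22690 probe sets on the array and 10 of the 12393 genes with a symbol of their own. Of the 23 probe sets 22 were bright enough on average to be tested, and the exception was 1456434_x_at, 1 of the 3 probe sets of Hspb8. Hspa8 had 4 probe sets, Hspa1b, Hspb8 and Hsp90aa1 had 3 each, Hspb1, Hsph1, Dnajb1 and Hspe1 had 2 each, and Hspa1a and Hspd1 had 1 each.

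The study hybridised kidney RNA of mice to 10 Affymetrix arrays, each in 1 colour. All mice were C57/BLACK6 males, 7 weeks old and about 20 g in weight, and all groups received 4-thiouridine (s4U), a uridine analog that living cells build into new RNA, at 200 µM with 34 µCi of tritiated cytidine. In the contralateral group the left kidney was clamped for 45 min under diethylether anaesthesia, the injections followed at 1 h and 2 h, and the unclamped kidney of the same mouse was taken 3 h after reperfusion. In the normal group, which had no operation, the injections were given at 0 h and 1 h and kidneys were taken at 2 h. No sham operation is described, so surgery, anaesthesia and timing go with the kidney group and cannot be told apart from it. Each kidney group had 2 arrays of total RNA, 2 of total RNA that had been amplified, and 1 of newly transcribed RNA, the fraction that carries s4U. The titles call the arrays biological replicates and do not say whether arrays of different preparations share a mouse, so the p-values measure the spread between these arrays. The question put to the chaperones was how their RNA in the contralateral kidney compared with that in the normal kidney in each preparation.

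Heat shock chaperones hold unfolded proteins in solution, fold them or pass them to degradation. HSP70 proteins bind exposed stretches of a client in a cycle of ATP hydrolysis that J-domain proteins start and nucleotide exchange factors end. HSP90 takes over clients such as steroid receptors and kinases, small heat shock proteins hold clients without ATP, and HSP60 with HSP10 folds proteins inside mitochondria. Many of these genes are switched on by the heat shock factor HSF1, which binds repeats of a short sequence called heat shock elements, and in the kidney HSP70 and HSP25 are known for their rise in tubules after ischaemia.

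The promoter sequences are shown because some of the members carry such repeats and because they show which members are hard to tell apart. Sequences came from RefSeq on build GRCm38.p6, matched by symbol, and cover the 250 bases before a start site. For 8 of the 10 genes there were 11 such windows, and Hspa8 and Hsp90aa1 had none. A pair of heat shock element units was searched as GAANNTTC and as TTCNNGAA. Each pattern reads the same on both strands, and matches of the 2 patterns can overlap. Either pattern was in 7 windows of 6 member genes (Hspa1a, Hspa1b, Hspb1, Hsph1, Hspd1 and Hspe1) and in 12.8% of the 32851 windows of all genes, GAANNTTC in 6.69% and TTCNNGAA in 7.17%. No match was found in these windows of Hspb8 and Dnajb1.

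In the lines that follow, capitals mark the matches, and Hspa1a and Hspb1 are shown over the whole 250 bases before the start site. Hspa1a lies at chr17:34972157-34972406 on the minus strand, Hspb1 at chr5:135887669-135887918 on the plus strand, the stretch of Hsph1 at chr5:149636352-149636381 on the minus strand and that of Hspe1 at chr1:55088052-55088081 on the plus strand.
Hspa1a: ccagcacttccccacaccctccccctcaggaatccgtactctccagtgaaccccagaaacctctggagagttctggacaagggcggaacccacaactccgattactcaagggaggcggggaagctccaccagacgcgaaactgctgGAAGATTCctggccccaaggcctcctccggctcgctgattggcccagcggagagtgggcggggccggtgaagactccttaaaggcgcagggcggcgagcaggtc
Hspb1: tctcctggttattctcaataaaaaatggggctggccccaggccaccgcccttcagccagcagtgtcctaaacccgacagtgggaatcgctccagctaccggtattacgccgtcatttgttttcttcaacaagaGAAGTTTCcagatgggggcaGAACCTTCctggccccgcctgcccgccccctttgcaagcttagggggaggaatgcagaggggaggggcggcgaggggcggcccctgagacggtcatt
Hsph1: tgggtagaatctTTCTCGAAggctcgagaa
Hspe1: cggtccgTTCTAGAACCTTCCGGAAggccc

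Hspa1a and Hspa1b, neighbouring copies of the inducible HSP70 gene, had 247 of 250 bases (98.8%) in common before their start sites. The differences, counted from the 5′ end of the 250 bases and written from Hspa1a to Hspa1b, were C44T, T47C and T249G. Their transcripts are likewise known to be near-identical, so the array values of the 2 genes are uncertain as to which copy they measure. The Hspe1 stretch holds overlapping matches of both patterns, 3 in a row. A run of at least 3 alternating units was in 0.466% of all windows. Hspd1 and Hspe1 are transcribed in opposite directions, with start sites 95 or 216 bases apart, and the matches of Hspd1 are the same bases read on the other strand.

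**Figure D1:**
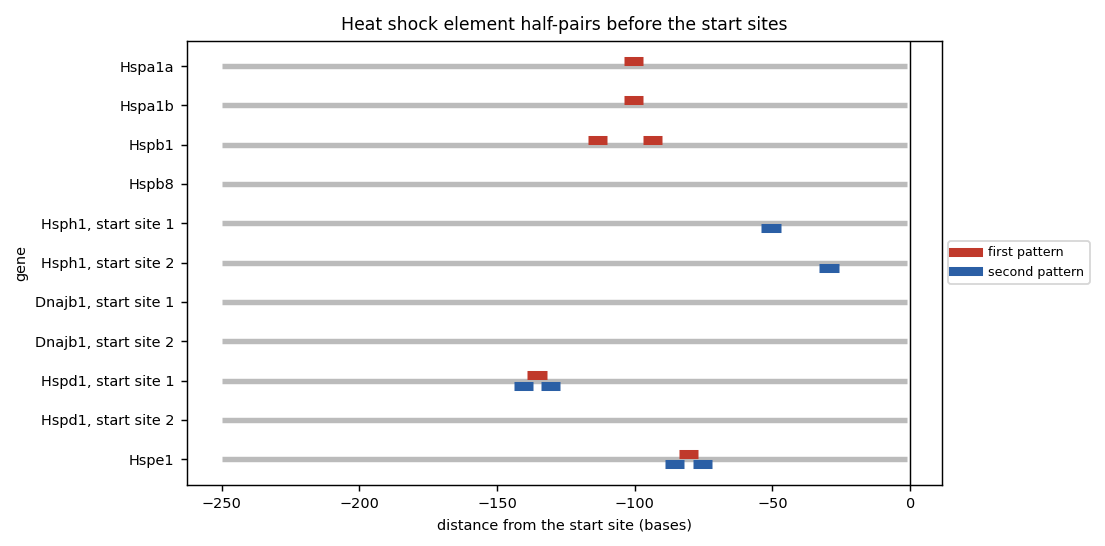
Positions of heat shock element pairs in the 250 bases before each RefSeq start site of the 8 chaperone genes with a sequence (grey bars; x axis, distance from the start site in bases). Red marks are the first pattern (GAANNTTC) and blue marks the second (TTCNNGAA): 7 of the 11 windows hold a mark, and those of Hspb8 and Dnajb1 hold none.

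Array quality differed between preparations and, for newly transcribed RNA, between kidney groups. The array median before normalization was 18.6 on the newly transcribed array of the contralateral kidney, and 70.25 on that of the normal kidney. The 3'/5' signal ratio of the Gapdh control probe sets, which rises where only the 3' end of RNA is copied, lay between 0.938 and 1.12 in total RNA and between 4.21 and 6.23 after amplification. In newly transcribed RNA it reached 12.7 in the normal and 68.9 in the contralateral kidney. All 9 kidney markers that had a probe set were bright enough to be tested, a bar that markers of other cell types also passed. By itself this does not identify the tissue. Marker sums were taken over deposited signal scaled to a common 75th percentile. Leukocyte markers (5 of 8 tested) stood at 1743 to 2346 in contralateral against 1543 to 1582 in normal amplified RNA. In total RNA they overlapped, at 1657 to 1776 in contralateral against 1574 to 1715 in normal kidneys. Smooth muscle and fibroblast markers (5 of 6 tested) overlapped between the kidney groups in both total and amplified RNA. Adipocyte markers (2 of 5) summed to 1146 to 1311 against 623 to 928 in total RNA and to 819 to 856 against 622 to 723 in amplified RNA. Adrenal (2 of 4) and red blood cell markers (1 of 4) were dim throughout, at 279 or less, and none of the 5 skeletal muscle markers was bright enough to be tested, with sums of 18.7 to 66.7. On the newly transcribed arrays leukocyte, smooth muscle and fibroblast, adipocyte and kidney sums were all higher in the contralateral kidney, at 3233 against 1072, 3795 against 988, 1565 against 355 and 21481 against 10863. Single markers did not all follow on the normalized log2 scale used for the chaperones. Kidney markers Kdr, Lrp2, Slc12a1, Slc34a1, Kap and Slc12a3 were lower there, by -1.45, -1.26, -0.60, -0.43, -0.29 and -0.21. Aqp2, Nphs1 and Umod were higher, by 0.74, 0.26 and 0.16. Ptprc (-0.52) and Myh11 (-1.36) were lower, unlike the other leukocyte, smooth muscle and fibroblast markers. The part of these differences in the chaperone values was not tested. In whole tissue, fewer cells of a type and less RNA per cell cannot be told apart.

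In total RNA, the standing pool of transcripts, no chaperone differed between contralateral and normal kidneys past the threshold. Differences are given as contralateral minus normal on a log2 scale of normalized signal, with limma's standard error, and a probe set passed where its p, adjusted over all 13575 probe sets tested, was below 0.05. Of the 22 chaperone probe sets 0 passed in limma and 2 had an unadjusted p below 0.05, where 1.91% of all probe sets passed. The chaperone differences ran from -0.31 to 0.52 with a median of 0.00, and their median size of 0.14 compared with 0.16 for all probe sets. The groups did not overlap in 4 chaperone probe sets that were higher and 3 that were lower, 18.2% and 13.6%, against 22.4% and 24.2% of all probe sets.

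In amplified total RNA, 7 of the 22 chaperone probe sets passed, 2 higher and 5 lower, where 10.3% of all probe sets did (4.1% higher, 6.22% lower). Hspb1 rose, and probe sets of Hsp90aa1, Hspa8, Hsph1 and Hspe1 fell. The median chaperone difference was -0.21, beside 0.02 for all probe sets. The groups did not overlap in 12 chaperone probe sets that were lower and 3 that were higher, 54.5% and 13.6%, against 25.5% and 29.5% of all probe sets. Leaving out single arrays of this preparation moved the number of calls, to 2 without normal replicate 1, 3 without normal replicate 2 and 4 without contralateral replicate 2.

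In newly transcribed RNA, with 1 array against 1 and no test, 9 of the 22 probe sets differed at least 2-fold. Those of Hspa1a, Hspa1b, Hspb1 and Hspb8 gave the 6 higher values, and those of Hsph1, Hsp90aa1 and Hspa8 the 3 lower ones. A difference of this size was seen in 32.8% of all probe sets (14.4% higher, 18.5% lower). The split of all probe sets past 2-fold depended on the scaling, with 43.8% of them higher after quantile normalization, 28.1% after median centring and 55.4% after scaling to the 75th percentile, and the median of all probe sets at 0.00, -0.21 and 0.16. Over all preparations together, 0 of the 22 chaperone probe sets passed in limma against 0.442% of all probe sets (0.383% higher, 0.0589% lower), and 7 had an unadjusted p below 0.05. With both newly transcribed arrays left out 2 of them passed, Hspb1 1425964_x_at higher (0.70) and Hspe1 1450668_s_at lower (-0.37). Leaving out either array alone gave the same differences. The share of 0.442% is that of the fit on all 10 arrays, and the share without these arrays is not given here.

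**Figure D2:**
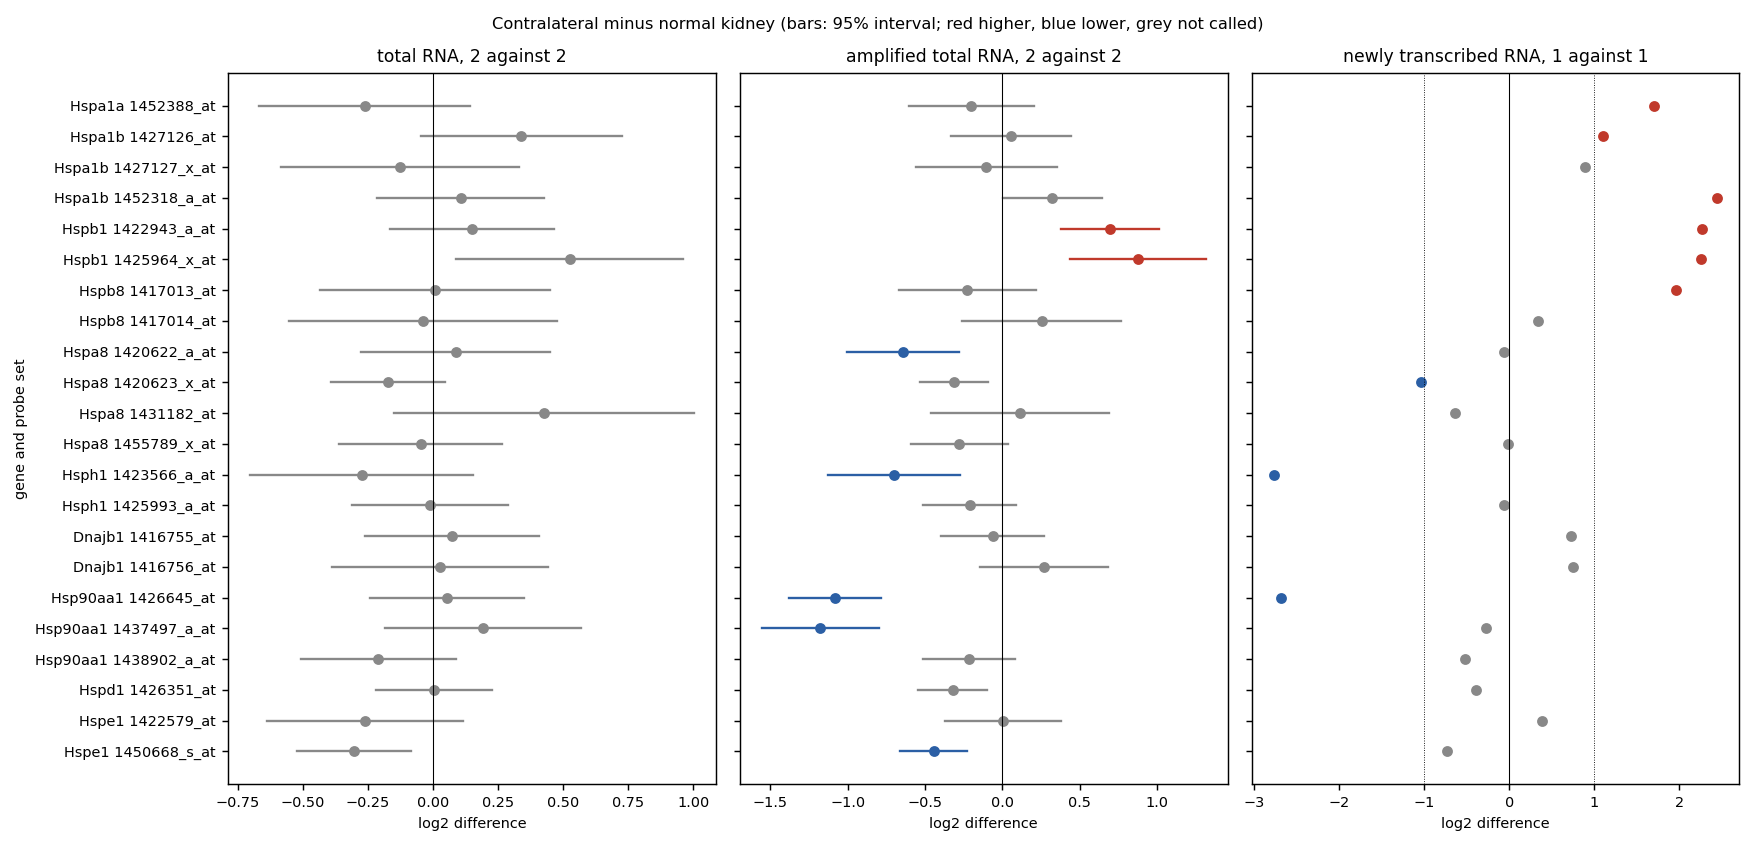
Contralateral minus normal kidney, on the log2 scale, for the 22 tested chaperone probe sets in 3 panels, 1 for each preparation (points, differences; bars, 95% intervals of limma, absent where there is 1 array a group). Red and blue mark adjusted p below 0.05 in the first and second panels and at least 2-fold, beyond the dotted lines, in the third; grey did not pass. No point is coloured in total RNA, 7 are in amplified RNA and 9 in newly transcribed RNA.

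The inducible HSP70 genes had their widest kidney difference on the newly transcribed arrays, where there is no test. The HSP70 proteins they encode are scarce in unstressed cells and are the textbook product of heat shock factor activity. The Hspa1a probe set 1452388_at read 6.69 and 6.41 in normal and 6.03 and 6.54 in contralateral total RNA. In amplified RNA it read 7.37 and 7.21 against 7.03 and 7.15, and in newly transcribed RNA 7.18 against 8.88. The contralateral newly transcribed array was the highest of the 10, the total RNA groups overlapped, and the contralateral amplified arrays lay just under the normal ones. The difference was -0.26 in total RNA (95% interval -0.67 to 0.14, adjusted p = 0.554 in limma) and -0.20 in amplified RNA (-0.61 to 0.20, adjusted p = 0.547). In newly transcribed RNA it was 1.70, or 3.24-fold. This rise is one after normalization. The deposited signals were 242.6 in normal and 197.2 in contralateral newly transcribed RNA, on arrays with medians of 70.25 and 18.6.

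In each of the 3 Hspa1b probe sets the contralateral newly transcribed array was likewise the highest of the 10 after normalization. Deposited signals on the normal and contralateral newly transcribed arrays were 128.3 and 72.4 for 1427126_at and 353.3 and 157.8 for 1427127_x_at. For 1452318_a_at they were 244.3 and 355.8. The 3 probe sets share a target with each other and may share it with that of Hspa1a. Probe set 1452318_a_at read 7.56 and 7.41 in normal and 7.53 and 7.64 in contralateral total RNA, 7.48 and 7.46 against 7.97 and 7.61 in amplified RNA, and 7.19 against 9.64 in newly transcribed RNA. Its difference was 0.11 in total RNA (adjusted p = 0.797, limma), 0.32 in amplified RNA (adjusted p = 0.198) and 2.45 in newly transcribed RNA, 5.46-fold. The other 2 probe sets, 1427126_at and 1427127_x_at, stood 1.11 and 0.89 higher in newly transcribed RNA. In total RNA they differed by 0.34 and -0.13, and in amplified RNA by 0.06 and -0.10, none past the threshold.

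Dnajb1 encodes the J-domain protein that delivers clients to HSP70 and is itself heat-induced. After normalization Dnajb1 was higher on the contralateral newly transcribed array by 0.72 (1416755_at) and 0.75 (1416756_at), short of 2-fold. Its deposited signals were lower there, at 898.7 against 1513.4 for 1416755_at and 34.4 against 70.8 for 1416756_at. The medians of these arrays were 18.6 and 70.25. In total RNA the differences of the 2 probe sets were 0.07 and 0.03. In amplified RNA they were -0.06 (95% interval -0.40 to 0.27) and 0.27 (-0.15 to 0.68). These intervals exclude a doubling in either direction.

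Hsph1, an HSP110 protein that exchanges the nucleotide of HSP70, gave probe sets that differed from each other. Probe set 1423566_a_at read 7.47 and 7.54 in normal and 6.97 and 7.48 in contralateral total RNA, 8.23 and 8.58 against 7.54 and 7.88 in amplified RNA, and 7.87 against 5.10 in newly transcribed RNA. It fell by 0.70 ± 0.19 in amplified RNA (adjusted p = 0.0442, limma), and was 6.83-fold lower on the contralateral newly transcribed array. Its deposited signal on that array was 10.5, below the array median of 18.6 and near the floor. The amplified call was kept in 10 of 20 alternative fits. Leaving out normal amplified replicate 2 gave -0.52 (adjusted p = 0.303), contralateral amplified replicate 1 -0.53 (0.197) and normal amplified replicate 1 -0.87 (0.0784), and leaving out either normal total array gave 0.0665. It was also lost with the smaller offset (0.0511), median centring (0.0663), no filter (0.0924), no intensity trend (0.0778) and only the arrays of the preparation in the fit (0.0539). Probe set 1425993_a_at, also annotated to Hsph1, read 10.68 and 10.62 on the normal and contralateral newly transcribed arrays. It differed by -0.01 in total RNA and by -0.21 in amplified RNA (adjusted p = 0.38).

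Hspa8, the constitutive HSP70 that also uncoats clathrin vesicles, was lower in amplified RNA in 3 of its 4 probe sets, and 1 passed. Probe set 1420622_a_at read 9.35 and 9.32 in normal against 8.78 and 8.61 in contralateral amplified RNA, groups that did not overlap, and fell by 0.65 ± 0.16 (adjusted p = 0.0309, limma). In total RNA it read 8.94 and 8.50 against 8.61 and 9.0, which overlapped, and in newly transcribed RNA 8.80 against 8.73. The call was lost without normal amplified replicate 1 (adjusted p = 0.157), normal amplified replicate 2 (0.149) or contralateral amplified replicate 2 (0.112), and also with no filter on dim probe sets (0.069) and with no intensity trend (0.0732). Probe sets 1420623_x_at and 1455789_x_at differed by -0.31 (adjusted p = 0.0719) and -0.28 (0.255) in amplified RNA, and 1431182_at by 0.11. Of the 4, only 1420623_x_at differed 2-fold in newly transcribed RNA, with 11.77 in normal and 10.73 in contralateral RNA.

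Hsp90aa1, the inducible cytosolic HSP90, gave the largest falls of the chaperones in amplified RNA. Probe set 1426645_at read 10.24 and 10.56 in normal against 9.16 and 9.48 in contralateral amplified RNA, and 1437497_a_at read 9.59 and 9.77 against 8.20 and 8.80. They fell by 1.08 ± 0.13 (2.12-fold, adjusted p = 0.000573) and 1.18 ± 0.17 (2.26-fold, adjusted p = 0.0015, limma), and both calls were kept in 20 of 20 alternative fits. In total RNA the same probe sets read 10.30 and 10.39 against 10.38 and 10.42, and 10.40 and 10.27 against 10.40 and 10.66. The kidney groups overlapped in the first. In the second they lay just apart, with 10.403 the highest normal and 10.4036 the lowest contralateral value. Their differences there were 0.05 (95% interval -0.24 to 0.35) and 0.19 (-0.19 to 0.57).

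The kidney difference of these Hsp90aa1 probe sets was not the same in the 2 preparations. Amplified minus total, it was -1.14 ± 0.19 for 1426645_at (adjusted p = 0.00587) and -1.37 ± 0.24 for 1437497_a_at (adjusted p = 0.00823, limma). These were the 2 of 22 chaperone probe sets that passed this test, both lower, where 4.46% of all probe sets passed (3.82% lower). The second was lost without normal total replicate 2 (-1.30, adjusted p = 0.0547) or normal amplified replicate 2 (-1.28, adjusted p = 0.052). The third Hsp90aa1 probe set, 1438902_a_at, differed from them: it read 10.20 and 10.47 in normal against 10.18 and 10.05 in contralateral amplified RNA, with a difference of -0.22 (adjusted p = 0.361), and its difference between the preparations was -0.01 (adjusted p = 0.988). In newly transcribed RNA 1426645_at read 9.54 against 6.86, 6.43-fold lower in the contralateral kidney, while 1437497_a_at read 9.42 against 9.14 and 1438902_a_at 9.85 against 9.32. Gapdh 3'/5' ratios of the amplified arrays overlapped between the kidney groups, at 5.29 and 4.21 in normal and 6.23 and 4.39 in contralateral kidneys, and the part of 3' bias in the Hsp90aa1 difference was not tested.

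Hspb1, the small heat shock protein HSP25 that binds actin and unfolded clients, had a higher mean in contralateral kidneys in both of its probe sets and in every preparation. Probe set 1422943_a_at read 9.45 and 9.79 in normal and 9.79 and 9.74 in contralateral total RNA, 7.54 and 7.73 against 8.21 and 8.45 in amplified RNA, and 6.66 against 8.93 in newly transcribed RNA. Its total RNA groups overlapped, and its amplified groups did not. Probe set 1425964_x_at read 7.54 and 7.87 against 8.03 and 8.43 in total RNA, 6.62 and 6.59 against 7.22 and 7.74 in amplified RNA, without overlap in either, and 6.12 against 8.38 in newly transcribed RNA.

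In amplified RNA Hspb1 rose by 0.70 ± 0.14 (1.62-fold, adjusted p = 0.0107) and 0.88 ± 0.20 (1.84-fold, adjusted p = 0.0175, limma) in the 2 probe sets. In total RNA the differences were 0.15 (adjusted p = 0.694; -0.02 without normal total replicate 1) and 0.52 (adjusted p = 0.248), and in newly transcribed RNA 2.27 and 2.26, 4.83-fold and 4.80-fold. The amplified call of 1422943_a_at was lost without normal amplified replicate 1 (adjusted p = 0.108) or contralateral amplified replicate 2 (0.052). That of 1425964_x_at was lost without normal amplified replicate 1 (0.0953), normal amplified replicate 2 (0.117) or contralateral amplified replicate 2 (0.0962). The difference between the amplified and the total RNA effect was 0.55 (adjusted p = 0.185) and 0.35 (adjusted p = 0.57, limma). The newly transcribed differences are those after normalization. Deposited signals on those arrays were 158.7 in normal and 205.9 in contralateral RNA for 1422943_a_at, and 98.2 and 135.8 for 1425964_x_at. The medians of these arrays were 70.25 and 18.6.

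Hspb8, a small heat shock protein that works with BAG3 in selective autophagy, was dim, and its probe sets disagreed. Probe set 1417013_at read 5.06 and 5.41 in normal and 5.37 and 5.11 in contralateral total RNA, 5.53 and 5.53 against 5.29 and 5.31 in amplified RNA, and 5.63 against 7.59 in newly transcribed RNA. The untested 1456434_x_at likewise read 5.39 against 7.21 in newly transcribed RNA, and between 3.96 and 4.90 on the other 8 arrays. The contralateral newly transcribed array was thus the highest of the 10 in both, by 1.96 and 1.83 over the normal one. Probe set 1417014_at read 5.16 against 5.50 there and stayed between 5.18 and 5.78 on the other 8. No Hspb8 difference passed in total or amplified RNA. Deposited signals on the normal and contralateral newly transcribed arrays were 60.6 and 76.1 for 1417013_at and 47 and 57.1 for 1456434_x_at. For 1417014_at they were 36.5 and 15.1, on arrays with medians of 70.25 and 18.6.

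Hspd1 and Hspe1 encode the mitochondrial chaperonin HSP60 and its lid HSP10. Hspd1 (1426351_at) read 10.93 and 10.91 in normal and 10.92 and 10.93 in contralateral total RNA, a difference of 0.00 with a 95% interval of -0.22 to 0.22. In amplified RNA it read 11.75 and 11.79 against 11.61 and 11.29, groups that did not overlap, with a difference of -0.32 ± 0.10 that did not pass (adjusted p = 0.0709, limma). Without contralateral amplified replicate 1 it passed, at -0.48 (adjusted p = 0.00643). In newly transcribed RNA it read 11.51 against 11.12.

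Hspe1 fell in amplified RNA in 1 of its 2 probe sets. Probe set 1450668_s_at read 10.80 and 10.65 in normal and 10.33 and 10.50 in contralateral total RNA, 10.77 and 10.70 against 10.25 and 10.33 in amplified RNA, and 10.08 against 9.34 in newly transcribed RNA, lower in the contralateral kidney each time. The difference was -0.31 ± 0.10 in total RNA (adjusted p = 0.175, the smallest of the chaperones there) and -0.44 ± 0.10 in amplified RNA (adjusted p = 0.0164, limma). The amplified call was lost without normal amplified replicate 1 (adjusted p = 0.13), normal amplified replicate 2 (0.0853) or contralateral amplified replicate 1 (0.0533), and also under median centring (0.087), scaling to the 75th percentile (0.0903) and no intensity trend (0.0741). Probe set 1422579_at differed by -0.26 in total RNA, 0.00 in amplified RNA and 0.38 in newly transcribed RNA.

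**Figure D3:**
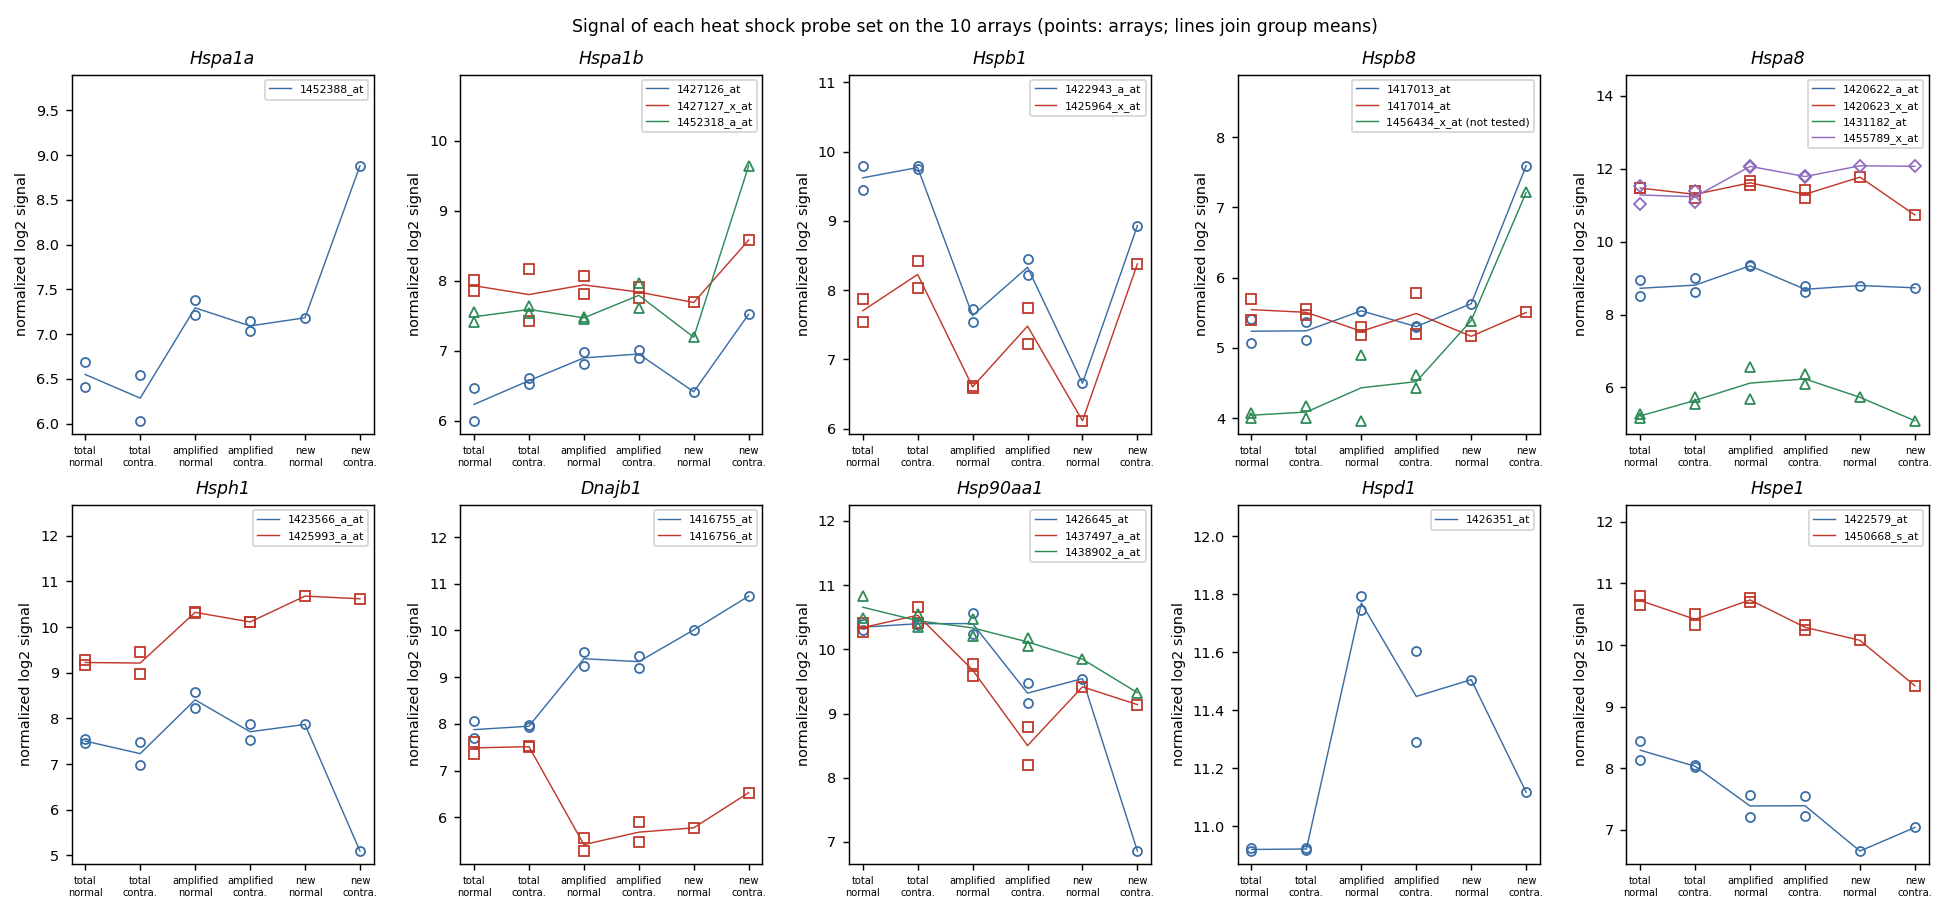
Normalized log2 signal of each chaperone probe set on the 10 arrays (points, arrays; lines, group means; a panel per gene; x axis, preparation and kidney group, contra. for contralateral). Levels of different probe sets are not comparable. On the contralateral newly transcribed array Hspa1a, all Hspa1b probe sets, both probe sets of Hspb1 against the normal one and 2 of Hspb8 stand high, and Hsph1 1423566_a_at and Hsp90aa1 1426645_at stand low.

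Between amplified and total RNA the largest changes were those of Dnajb1 and Hspb1, and the Dnajb1 probe sets moved in opposite directions. Over both kidney groups 10 of the 22 chaperone probe sets passed, 5 higher and 5 lower, where 38.4% of all probe sets passed (20.7% higher, 17.6% lower). Among all probe sets 54.1% of these calls were higher, and 66.8% after median centring, which moved the median of all probe sets to 0.17. Hspd1 rose by 0.69 ± 0.11 (adjusted p = 0.0013), Hsph1 1425993_a_at by 1.00 ± 0.13 (adjusted p = 0.000362) and the Hspa8 probe sets 1455789_x_at and 1431182_at by 0.67 and 0.75. The last was lost in 6 of the 10 fits without 1 array (adjusted p up to 0.0974, without normal amplified replicate 1), under scaling to the 75th percentile (0.0803), with no filter (0.0518) and with the random replicate block (0.0554). Scaling to the 75th percentile also ended the call of 1455789_x_at (0.152). Hspb1 fell by 1.71 ± 0.31 (adjusted p = 0.00186) and 0.92 ± 0.28 (adjusted p = 0.0255), Hsp90aa1 1437497_a_at by 1.34 ± 0.26 (adjusted p = 0.0031) and Hspe1 1422579_at by 0.77 ± 0.17 (adjusted p = 0.00576, limma). The smaller Hspb1 call was lost in 6 of those 10 fits, with adjusted p up to 0.0836 without contralateral amplified replicate 1.

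Dnajb1 moved both ways. Probe set 1416755_at read 7.70 to 8.06 on the 4 total RNA arrays and 9.20 to 9.55 on the 4 amplified ones, and rose by 1.45 ± 0.17 (adjusted p = 0.000231). Probe set 1416756_at read 7.37 to 7.61 in total RNA and 5.28 to 5.90 in amplified RNA, and fell by 1.95 ± 0.17 (adjusted p = 6.38e-05, limma). Both kept their calls in 20 of 20 alternative fits. Of the 2861 genes with several tested probe sets 8.0% had opposite calls in this comparison. Dnajb1 was the only such gene of the 8 chaperones with several, and its probe sets lay 3.40 apart. The 3'/5' ratios given above differ between these preparations without overlap, and their part in the split was not tested.

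Between newly transcribed and amplified RNA 6 of the 22 chaperone probe sets passed, 2 higher and 4 lower, where 28.6% of all probe sets did (11.9% higher, 16.7% lower). Of those calls 41.6% were higher, and 29% after median centring. Dnajb1 1416755_at read 10.01 and 10.74 on the newly transcribed arrays, above all 4 amplified arrays, and rose by 1.01 ± 0.21 (adjusted p = 0.00667). Hspe1 1450668_s_at fell by 0.80 ± 0.14 (adjusted p = 0.00292, limma). These 2 calls were kept in 20 of 20 alternative fits. Hsp90aa1 1438902_a_at fell by 0.64 ± 0.16 (adjusted p = 0.0154), a call lost with the replicate number as a fixed block (0.0539) and when only these preparations were fitted (0.062).

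The other 3 calls rested on the contralateral newly transcribed array. Hsp90aa1 1426645_at fell by 1.66 ± 0.46 (adjusted p = 0.023), and by 0.57 without that array (adjusted p = 0.196), a call kept in 16 of 20 alternative fits. Hsph1 1423566_a_at fell by 1.58 ± 0.45 (adjusted p = 0.0255), and by 0.43 without it (adjusted p = 0.204), a call kept in 14 of 20. Hspb8 1417013_at rose by 1.20 ± 0.40 (adjusted p = 0.0475), was 0.16 without it (adjusted p = 0.642, limma), and kept its call in 3 of 19 alternative fits. Without the normal newly transcribed array instead, the contralateral array alone stood for newly transcribed RNA, so only differences are given for that fit. They were 1.80 for Hspa1a and 1.90 for Hspa1b 1452318_a_at.

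**Figure D4:**
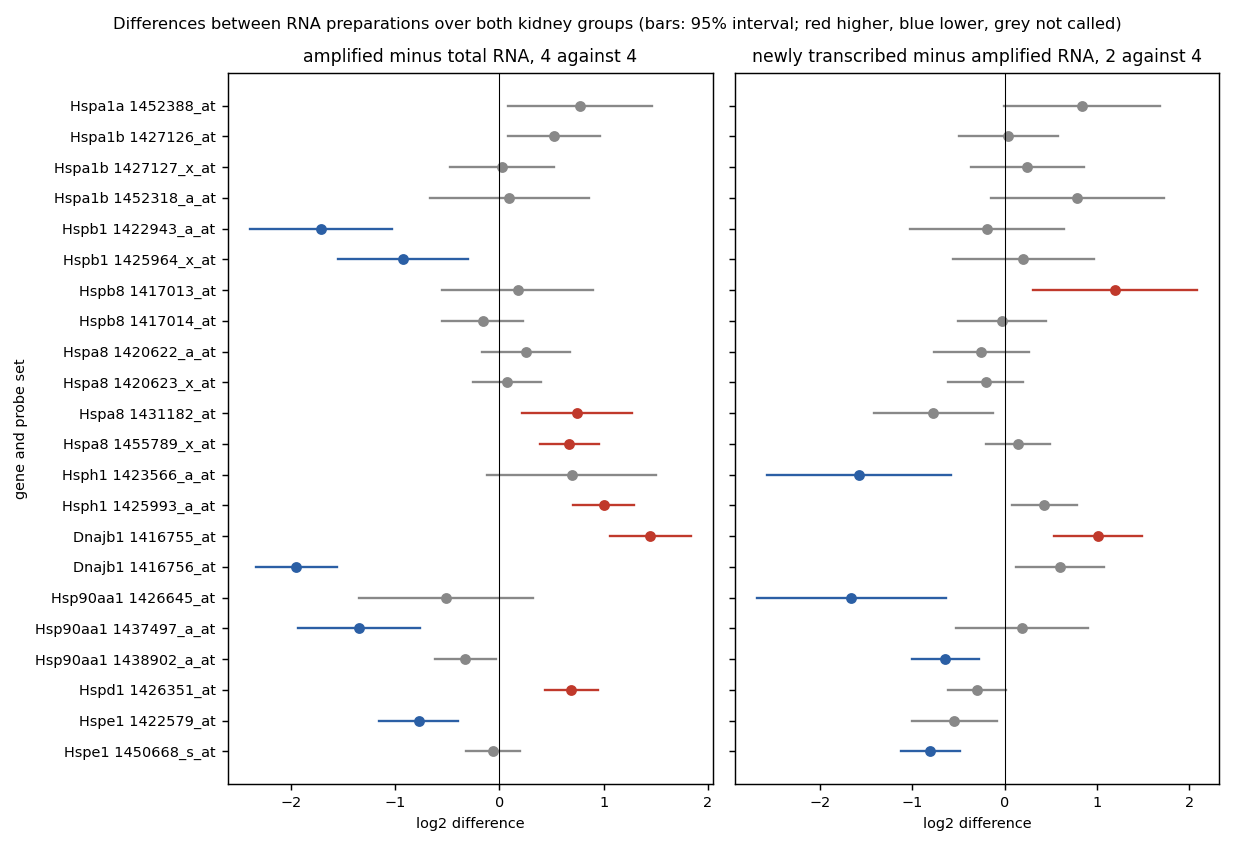
Differences between RNA preparations over both kidney groups for the 22 tested chaperone probe sets (x axis, log2 difference; points, limma estimates; bars, 95% intervals; red higher, blue lower and grey not past adjusted p of 0.05). The Dnajb1 probe sets lie on opposite sides between amplified and total RNA, at 1.45 and -1.95.

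Probe sets of 1 gene often disagreed on the kidney effect. Among the 8 chaperones with several tested probe sets, the median gap between the highest and the lowest was 1.34 in newly transcribed RNA, beside 1.07 for the 2861 genes with several. It was 0.46 beside 0.33 in amplified RNA and 0.32 beside 0.25 in total RNA. Of the 8 chaperones, 5 lay above the median of the 2861 genes in newly transcribed RNA, 6 in amplified and 5 in total RNA. Such a gap can only widen with more probe sets, and their number was not matched. The widest gaps were those of Hsph1 in newly transcribed RNA (2.71) and Hsp90aa1 in amplified RNA (0.96). Names ending in _x_at, _s_at or _a_at mark probe sets whose probes can match more than 1 transcript.

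The genes most like each chaperone across the 10 arrays, once each preparation's mean was removed, are given as a description. The part of the spread that the 2 newly transcribed arrays carry differed between genes. In the brightest probe sets, their contralateral minus normal difference was 2.27 for Hspb1, 1.70 for Hspa1a and 1.96 for Hspb8. It was only -0.01 for Hspa8 and -0.06 for Hsph1. For the brightest probe set of each gene and 8290 other genes, Hspb1 was most like Stx8 (Pearson r 0.995), Eif2b2 (0.992) and Myo5b (0.991). Hspa1a was most like Ttl (0.991), Polrmt (0.983) and Pdrg1 (0.983), Hspa1b like Tpgs2 (0.935), Hspb8 like Rpl13a (0.992), and Dnajb1 like Rnf19b (0.982). Hspd1 came closest to Gabarapl2 (0.974), Hspe1 to Aacs (0.974), Hspa8 to Fam117a (0.965), Hsph1 to Gal3st1 (0.962) and Hsp90aa1 to Aif1l (0.932). No chaperone was compared with another here, and arrays of 1 kidney group share surgery and timing.

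The wider heat shock system was read from 7 lists of 65 other genes, 52 of which were tested with 1 probe set each, the brightest. Over all preparations 1 rose and 0 fell in limma, where 0.442% of all probe sets passed: Fkbp5, an HSP90 partner of steroid receptors that glucocorticoids induce, by 1.21 (adjusted p = 0.00177). In total RNA 2 rose and 0 fell, where 1.91% of all probe sets passed, Fkbp5 by 1.21 (adjusted p = 0.000409) and Hspa4, an HSP110 relative of Hsph1, by 0.68 (adjusted p = 0.0353). In amplified RNA 3 rose and 2 fell, where 10.3% of all probe sets passed, so this count was near the background. The rises were Fkbp5 by 1.07 (adjusted p = 0.000229), the J-domain protein Dnajb4 by 0.96 (adjusted p = 0.00645) and Grpel2, a mitochondrial nucleotide exchange factor, by 0.48 (adjusted p = 0.0196). Serpinh1, the collagen chaperone HSP47, fell by 1.08 (adjusted p = 0.0055) and St13, which links HSP70 to HSP90, by 0.57 (adjusted p = 0.0106). The medians of the 52 genes were 0.00 and 0.02 in total and amplified RNA, beside -0.01 and 0.02 for all probe sets.

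Other lists held no call in these comparisons. In amplified RNA the smallest p of the TRiC chaperonin, which folds actin and tubulin and had 8 tested genes, was that of Tcp1 (0.51, adjusted p = 0.0659), and of the 2 tested small heat shock proteins that of Hspb2 (-0.31, adjusted p = 0.388). In total RNA the corresponding genes were Cct6a (-0.14, adjusted p = 0.706) and Hspb2 (-0.14, adjusted p = 0.809), beside Clpx of the 11 mitochondrial chaperones and proteases (0.46, adjusted p = 0.172) and Dnajc5 of the 15 HSP70 partners and relatives (0.29, adjusted p = 0.212). Hsbp1, the only tested gene of the heat shock factor list, differed by -0.03 in total and 0.04 in amplified RNA. Hsf1 had no probe set of its own symbol in the annotation, nor had, among others, Ubb, Hsp90ab1, Ptges3, Ppid, Hspb6 and Dnajc19.

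The kidney difference between amplified and total RNA passed in 0 of the 52 genes in limma, with the smallest p for St13 (-0.62, adjusted p = 0.0673). In newly transcribed RNA, 1 array against 1, 8 of the 52 were at least 2-fold higher and 12 lower, beside 14.4% and 18.5% of all probe sets. Unc45a, an HSP90 partner for myosin (2.43), the small heat shock protein Cryab (1.86) and Fkbp5 (1.49) were among the higher, and Cct8 (-2.97), Dnaja2 (-2.03) and Cacybp (-1.77) among the lower.

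Between amplified and total RNA 27 of the 52 other heat shock genes rose and 4 fell, where 20.7% of all probe sets were higher and 17.6% lower. Each of the 52 was read from its brightest probe set over the 10 arrays, and most of these arrays are amplified or newly transcribed. The shares cover all probe sets, and the part of this choice in the counts and medians was not tested. Of the calls over all probe sets 54.1% were higher, 66.8% after median centring and 48.7% after scaling to the 75th percentile. Among the rises were 7 higher of 8 TRiC genes (Cct8 by 1.42, Cct7 by 1.29, Cct5 by 1.15) and 8 higher of 15 HSP70 partners (Bag5 by 1.13, Dnajc7 by 1.06). Of the other heat-induced genes 6 of 10 rose (Chordc1 by 1.60, Hspa4 by 1.11, Dnajb4 by 0.92), and of the HSP90 partners Unc45a rose by 1.04 and Sugt1 and Cdc37 fell by 0.71 and 0.43. Of the mitochondrial list Lonp1 rose by 1.17, and Clpp and Hscb fell by 0.89 and 1.32. Between newly transcribed and amplified RNA 5 rose and 19 fell, where 11.9% of all probe sets were higher and 16.7% lower. The falls included 6 of 11 mitochondrial genes (Clpp by 1.59, Lonp1 by 1.50, Trap1 by 1.44), 4 of 8 TRiC genes (Cct8 by 1.57, Cct5 by 1.25, Cct6a by 1.16), 3 HSP90 partners (Sugt1 by 1.60, Cdc37 by 1.33, Fkbp4 by 0.99), the HSP70 partners Bag1 by 1.48 and Stub1 by 1.22, and Cacybp by 1.10. The rises included Dnajb5 by 1.18 and Chordc1 by 0.99. The median of the 52 was 0.63 in the first comparison and -0.44 in the second, beside 0.04 and -0.01 for all probe sets.

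**Figure D5:**
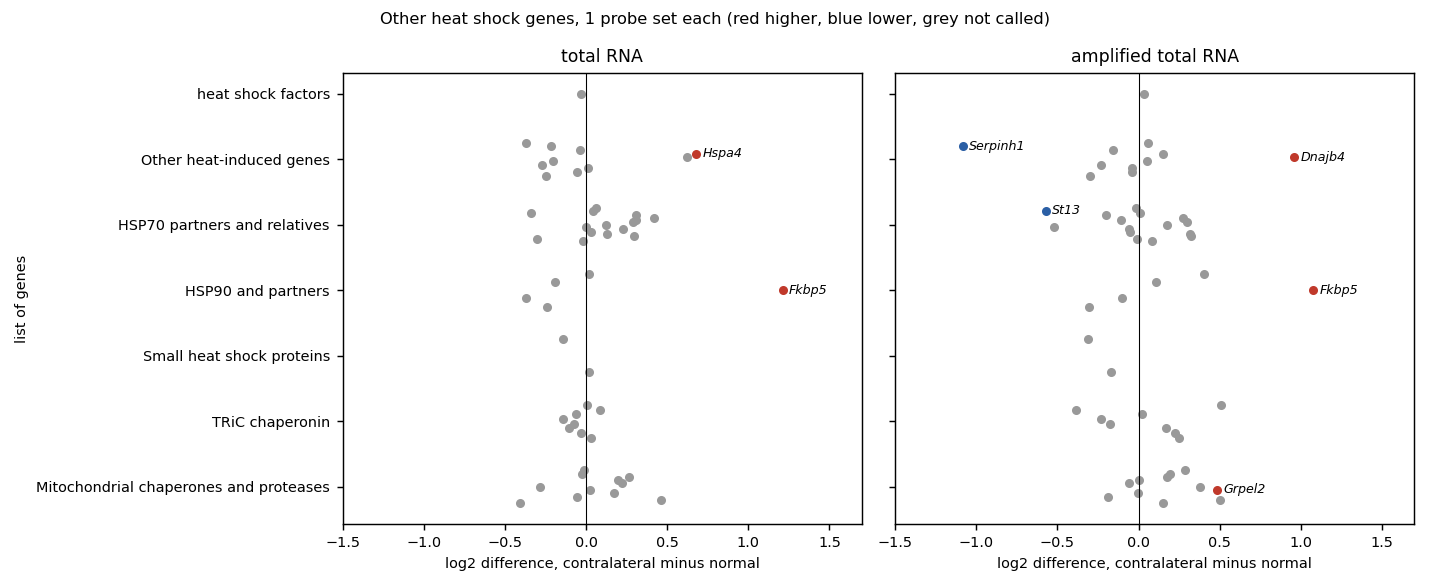
Contralateral minus normal kidney (x axis, log2 difference) for the 52 tested genes of the 7 lists of other heat shock genes, a point each, in total RNA and amplified total RNA. Red and blue mark genes past adjusted p of 0.05, which are named: 2 are higher in total RNA, and 3 are higher and 2 lower in amplified RNA.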

How the data were processed

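The values deposited by the authors, 1 for each probe set on each array, were treated as linear signal intensities. How they were summarised, scaled or called present is not given in the sources used here. RNA was purified on columns, reverse-transcribed, linearly amplified and labelled with biotin with T7 polymerase, per the labels' protocols. An offset of 11.8, the 25th percentile of the whole table, was added before log2, followed by quantile normalization without the 64 control probe sets. This scale understates changes of dim genes. Probe sets with a mean above the 40th percentile (13575 of 22690) were tested with limma 3.58.1 in R 4.3.3 (lmFit, eBayes with an intensity trend, Benjamini-Hochberg over all of them, threshold 0.05) on all 10 arrays. Kidney effects within a preparation and their difference came from 6 group means (4 residual degrees of freedom). The effect over all preparations and the differences between preparations came from an additive model (6 residual degrees of freedom). As newly transcribed RNA had 1 array a group, a 2-fold difference was used there and no test. The fits were checked on simulated data with independent noise of the same spread on every array. That check does not cover arrays of unequal quality or arrays that share a mouse. The number of arrays limits the precision.

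Symbols came from the platform annotation: 20380 probe sets have 1, 691 have several and 1555 are not listed. The 10 chaperone symbols matched RefSeq by Entrez number. All chaperone probe sets are described. For each list of other heat shock genes the rule takes up to 3 genes past the threshold with the largest changes, or else the gene with the smallest p, and the text gives a part of these. A gene's most alike genes are the 3 highest Pearson r, of which the text gives a part. The chaperones, lists and markers were chosen with earlier results of these data known. Alternatives changed the offset, the scaling, the filter on dim probe sets, the trend, the arrays in the fit, a replicate block, 1 array at a time and the probe set that stands for a gene.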

Additional observations from a re-analysis of the deposited data

Results flagged for a closer look

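The Hsp90aa1 probe sets 1426645_at and 1437497_a_at stood out because the contralateral minus normal difference itself differed between preparations. It was lower in amplified than in total RNA by a log2 difference of -1.14 ± 0.19 (adjusted p = 0.00587, limma) and -1.37 ± 0.24 (adjusted p = 0.00823). The contralateral arrays were below the normal ones in 2 of 2 amplified RNA arrays in both probe sets. The third Hsp90aa1 probe set, 1438902_a_at, gave -0.01 (adjusted p = 0.988) for the same difference.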

How the results depend on the processing

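Counts of chaperone probe sets past the threshold moved by over 1.5 times in these cases, and the cause was not tested. Over all preparations the count of 0 became 2 without both newly transcribed arrays, and 0 to 2 when 1 array was left out. In amplified RNA the count of 7 became 4 with no intensity trend and ran from 2 to 7 with 1 array left out. The count of 2 whose kidney effect differed between amplified and total RNA ran from 1 to 3. For newly transcribed against amplified RNA the count of 6 became 3 when only those arrays were fitted and ran from 3 (without contralateral amplified replicate 2) to 16 (without the normal newly transcribed array). In total RNA it was 0 in all 20 alternatives, and between amplified and total RNA it ran from 8 to 15 around 10. For the newly transcribed arrays it ran from 8 to 10 around 9. Over all probe sets the calls ran from 12 to 1052 over all preparations, 48 to 374 in total RNA, 515 to 1467 in amplified RNA, 277 to 721 for the difference of these effects, 2300 to 6729 for newly transcribed against amplified RNA and 4027 to 7911 for amplified against total RNA.

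Arrays of the same number were not paired, since their deviations correlated at 0.0971 and 0.0998 between total and amplified RNA of 1 kidney group and at -0.07 and 0.04 between kidney groups. With the number as a fixed replicate block, 2 of the 22 passed for newly transcribed against amplified RNA. With the number within a kidney group as a random block, 6 of the 22 passed over all preparations (consensus correlation -0.23): both probe sets of Hspb1 higher, and Hspa8 1420623_x_at, Hsph1 1423566_a_at, Hsp90aa1 1426645_at and Hspe1 1450668_s_at lower. In that fit 1052 of all 13575 probe sets passed, beside 60 without the block. A negative correlation within these blocks narrows the standard error of the kidney effect, where a positive one would widen it. The calls of that fit are therefore less cautious than those without the block. Other counts stayed within 1.5 times.

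The direction turned for 36 values of single probe sets, none of them past the threshold as reported. Among them was Hspb1 1422943_a_at, newly transcribed minus amplified RNA, at 0.74 without the normal newly transcribed array. That fit leaves 1 array of newly transcribed RNA, so only the difference is given. Over all preparations, median centring gave 0.047 for Hspa8 1455789_x_at, and scaling to the 75th percentile gave 0.22 for it, 0.074 for Hsph1 1425993_a_at and 0.051 for Hspd1. Without the newly transcribed arrays Hspa1a was -0.23, Hspa1b 1427127_x_at -0.11 and Hspb8 1417013_at -0.11. With 1 array left out these 3 ran up to 0.30, 0.23 and 0.40. Between amplified and total RNA, median centring gave 0.16 for Hspe1 1450668_s_at. With 1 array left out, newly transcribed minus amplified RNA ran from -0.13 to 1.80 for Hspa1a, from -0.41 to 0.50, -0.26 to 0.75 and -0.33 to 1.90 for Hspa1b 1427126_at, 1427127_x_at and 1452318_a_at, from -1.11 to 0.74 and -0.58 to 0.99 for the Hspb1 probe sets 1422943_a_at and 1425964_x_at, and from -0.60 to 0.19 for Hspa8 1420623_x_at. The kidney effect in total RNA ran from -0.50 to 0.24 for Hspa1b 1427127_x_at, -0.024 to 0.32 for Hspb1 1422943_a_at, -0.13 to 0.31 and -0.29 to 0.19 for Hspa8 1420622_a_at and 1455789_x_at, -0.25 to 0.22 for Hsph1 1425993_a_at and -0.11 to 0.25 for Dnajb1 1416755_at. In amplified RNA it ran from -0.032 to 0.54 for Hspb8 1417014_at, -0.32 to 0.55 for Hspa8 1431182_at and -0.18 to 0.19 for Hspe1 1422579_at. Its difference between those preparations ran from -0.35 to 0.39 for Hspa1b 1427127_x_at, -0.74 to 0.12 and -0.47 to 0.011 for Hspa8 1431182_at and 1455789_x_at, and -0.43 to 0.037 for Hsph1 1425993_a_at.

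Taking the mean over a gene's probe sets in place of its brightest one turned 8 values: the kidney effect became 0.11 for Hspa1b and 0.012 for Hsp90aa1 in total RNA, 0.014 for Hspb8 and 0.10 for Dnajb1 in amplified RNA, and 0.064 for Hspe1 in the difference between them. Newly transcribed minus amplified RNA became -0.27 for Hspa8 and -0.57 for Hsph1, and amplified minus total RNA -0.25 for Dnajb1, whose brightest probe set had risen by 1.45.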
